A study of Arabidopsis thaliana with 7 samples.

Results

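A set of 10 WRKY transcription factor genes tied to defence was followed in wild-type *Arabidopsis thaliana* Col-0 seedlings, taken as the listed identifiers AT1G62300 (WRKY6), AT4G31550 (WRKY11), AT4G31800 (WRKY18), AT2G38470 (WRKY33), AT1G80840 (WRKY40), AT2G46400 (WRKY46), AT4G23810 (WRKY53), AT2G40750 (WRKY54), AT2G25000 (WRKY60) and AT3G56400 (WRKY70). They are 10 of the 72 genes that the gene table names WRKY, and 10 of the 33602 genes counted. The RNA-seq group comprised 3 replicate samples of seedlings raised for 14 days on MS medium at 22 °C, in cycles of 16 h light and 8 h dark, and the labels name no mutant and no pathogen or elicitor. The labels do not say whether replicates are separate plantings, so the spread between them may be technical. The H3K4 methylation and input samples are not used here, and the single RNA group offers no comparison of conditions.

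WRKY proteins share a DNA-binding domain that carries the WRKYGQK peptide and a zinc finger, and they bind the W-box, a short promoter element common in defence genes and in WRKY genes themselves. The family is divided by domain number and zinc finger type into groups I, IIa to IIe and III. In leaves, many members respond within minutes to pathogen patterns, wounding or salicylic acid, and they act as activators, as repressors, or as both, often in overlapping pairs and trios. No sequence of the members was used here.

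The libraries held 30946664, 18493022 and 20764970 counts in replicates 1, 2 and 3. A mean chi-square per gene was taken over genes with 20 or more counts in a pair of libraries. By it replicate 3 differed most, with 15.6 against replicate 1 and 9.63 against replicate 2, beside 4.45 between replicates 1 and 2. This mean is weighted towards genes with many counts. Genes varying beyond counting error, tested below, ranked the pairs otherwise. They numbered 2964 for replicates 2 and 3, 3172 for replicates 1 and 2, and 3862 for replicates 1 and 3. Both measures depend on depth. Levels are CPM, counts scaled to a common library total with TMM factors, and expressed means an average of 1 CPM or more over the libraries. The markers matched the seedling label: the leaf genes RBCS1A and LHCB1.3 stood at 10326 ± 475 and 7065 ± 406 CPM and the root gene PYK10 at 2385 ± 9.71 CPM (SD, n = 3). The floral identity genes AG and AP3 had 0 to 2 counts in each library. In whole seedlings, few cells with much RNA of a gene and many cells with little of it cannot be told apart.

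All 10 members were above 1 CPM in every library and so counted as expressed, as did 38 of the 62 other WRKY genes by their mean. Their summed level was 289, 292 and 302 CPM in replicates 1, 2 and 3, or 294 ± 6.54 CPM (SD, n = 3), so the sum differed little between libraries. Single members lay between the 16.5th percentile (WRKY46) and the 89.6th percentile (WRKY33) of the 18915 expressed genes by CPM. Transcript lengths were not used, so CPM values of different genes are set side by side as reads, not as transcript numbers.

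**Figure D1:**
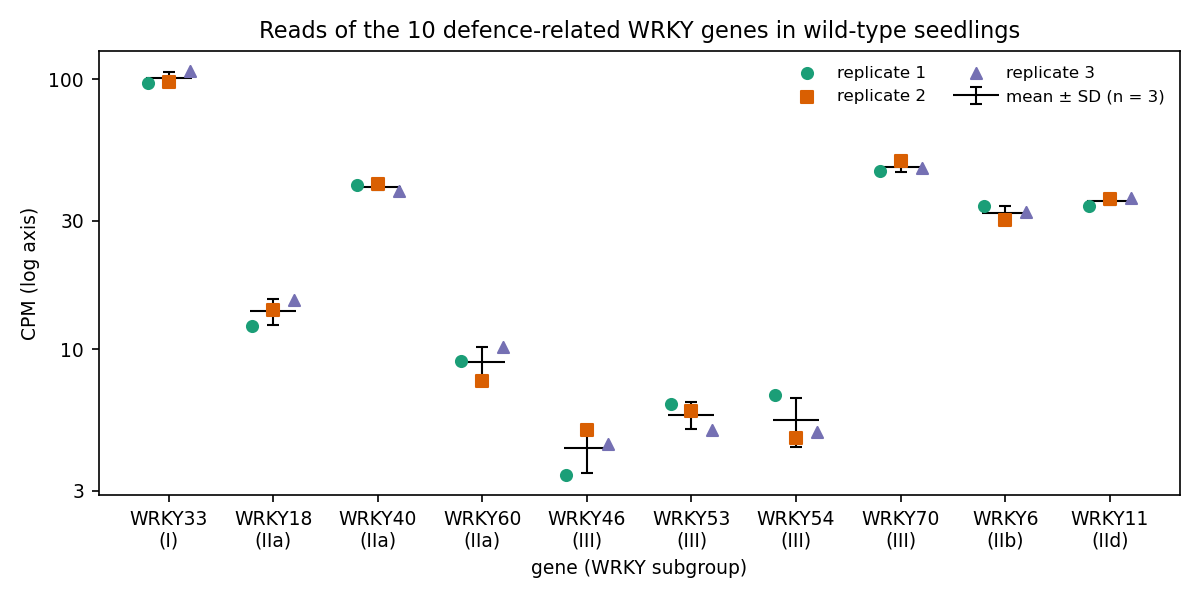
CPM of each member (log axis) in the 3 libraries, with the mean and SD in black; genes are ordered by role and labelled with their WRKY group. WRKY33 sits near 100 CPM, WRKY70, WRKY40, WRKY11 and WRKY6 between 30 and 50 CPM, and WRKY46, WRKY53 and WRKY54 between 3 and 7 CPM.

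WRKY33, a group I factor with both WRKY domains, is phosphorylated by the kinases MPK3 and MPK6 and is needed for camalexin synthesis and for resistance to the grey mould *Botrytis*. It had 97.2, 97.9 and 107 CPM in replicates 1, 2 and 3, from 3008, 1832 and 2206 counts. Replicates 1 and 2 nearly coincided, and replicate 3 stood above both, by 1.11-fold over the lowest library. By the mean chi-square per gene, though not by genes varying beyond counting error, replicate 3 also differed most from the others. What part that library's difference has in the WRKY33 value was not tested. WRKY33 took 34.2 ± 1.18% of the reads of the 10 genes (SD, n = 3), the largest share in each library. Its mean was 101 ± 5.71 CPM. The group I relatives WRKY25 and WRKY26, known with WRKY33 for a role in thermotolerance, stood at 35.4 ± 2.32 and 16.97 ± 2.45 CPM. The expressed group I genes numbered 11 of 14.

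WRKY18, WRKY40 and WRKY60 form group IIa, whose products bind one another through leucine zippers and act largely as repressors of defence genes. WRKY40 had 40.7, 40.9 and 38.6 CPM in replicates 1, 2 and 3 and was the steadiest member, with a coefficient of variation of 3.19%. WRKY18 had 12.2, 14.0 and 15.3 CPM, lowest in replicate 1 and highest in replicate 3. WRKY60, which lies downstream of the other two in abscisic acid responses, had 9.05, 7.64 and 10.2 CPM, with replicate 2 the lowest. The 3 genes did not share an order of libraries. Within a library, where length cancels between replicates, the ratio of WRKY40 to WRKY18 counts was 3.33, 2.92 and 2.53 in replicates 1, 2 and 3. The ratio of WRKY40 to WRKY60 was 4.50, 5.36 and 3.79, highest in replicate 2.

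The group III members act around salicylic acid. WRKY70, an activator of salicylic acid responses and a repressor of jasmonate responses, had 45.8, 49.9 and 47.0 CPM in replicates 1, 2 and 3, a spread of 1.09-fold. WRKY54, its partner in holding back leaf senescence and salicylic acid synthesis, had 6.79, 4.70 and 4.97 CPM, from 210, 88 and 102 counts. Replicate 1 of WRKY54 stood above both other libraries, by 1.44-fold over the lowest. The ratio of WRKY70 to WRKY54 counts was therefore 6.74, 10.6 and 9.46 in the 3 libraries.

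WRKY53, a positive regulator of leaf senescence, had 6.27, 5.93 and 5.02 CPM in replicates 1, 2 and 3, with replicate 3 the lowest. WRKY46, which acts with WRKY53 and WRKY70 in basal resistance and with WRKY54 and WRKY70 in brassinosteroid and drought responses, had 3.43, 5.02 and 4.48 CPM from 106, 94 and 92 counts. WRKY46 was lowest in replicate 1, the library in which WRKY54 was highest. The ratio of WRKY54 to WRKY46 counts was 1.98 in replicate 1 and 0.936 and 1.11 in replicates 2 and 3. In replicates 2 and 3 the counts were 88 against 94 and 102 against 92. Taken over all 3 libraries, counting error alone is 9.30% for WRKY54 and 10.2% for WRKY46, and 13.1% and 14.4% on halved counts. Which of the pair had more reads in replicates 2 and 3 is therefore not settled.

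WRKY6, a group IIb factor tied to senescence, the defence kinase gene FRK1 and repression of the phosphate exporter gene PHO1, had 33.9, 30.04 and 32.4 CPM in replicates 1, 2 and 3. WRKY11, a group IId factor that binds calmodulin and restrains basal resistance together with WRKY17, had 34.1, 35.97 and 36.4 CPM. The libraries of each gene spanned 1.129-fold for WRKY6 and 1.07-fold for WRKY11. WRKY17 stood at 15.8 ± 1.002 CPM, and the group IId relatives WRKY15 and WRKY7 at 50.3 ± 2.70 and 27.5 ± 2.04 CPM. WRKY42, which shares with WRKY6 the repression of PHO1, and WRKY31, another IIb relative, stood at 2.29 ± 0.286 and 3.44 ± 0.422 CPM. All 8 IIb genes and 6 of 7 IId genes were expressed.

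In reads, the order was WRKY33, WRKY70, WRKY40, WRKY11, WRKY6, WRKY18, WRKY60, WRKY53, WRKY54 and WRKY46. Each of the first 7 had more CPM in its lowest library than the next gene in its highest. WRKY53 and WRKY54 overlapped, as did WRKY54 and WRKY46, and each of these pairs kept its order in 2 of 3 libraries. An exact sign-flip test over 3 libraries cannot give a two-sided p under 0.25, so no test was made of any pair. The order is one of reads and could differ per length.

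The members did not share 1 highest library, and their split lay near that of all genes tested. Of the 10, 3 were highest in replicate 1 (WRKY6, WRKY53 and WRKY54), 3 in replicate 2 (WRKY40, WRKY46 and WRKY70) and 4 in replicate 3 (WRKY11, WRKY18, WRKY33 and WRKY60), against 33.3%, 33.7% and 33% of all genes tested. With library totals only, the split of the members was 3, 4 and 3. Only 3 of the 10 varied beyond counting error, tested below, so the highest library of the others may be counting error. The median log2 difference of 1 library from the mean of the other libraries was -0.02, 0.03 and 0.04 over the members in replicates 1, 2 and 3, beside 0.0048, 0.0030 and -0.0017 over all genes tested. These medians depended on the scaling and on single libraries. With library totals only, replicates 2 and 3 gave 0.057 and 0.015. Without replicate 1, replicate 2 gave -0.054, without replicate 2, replicates 1 and 3 gave -0.067 and 0.067, and without replicate 3, replicates 1 and 2 gave -0.0090 and 0.0090. The widest single differences were in replicate 1, with 0.48 for WRKY54 and -0.46 for WRKY46.

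**Figure D2:**
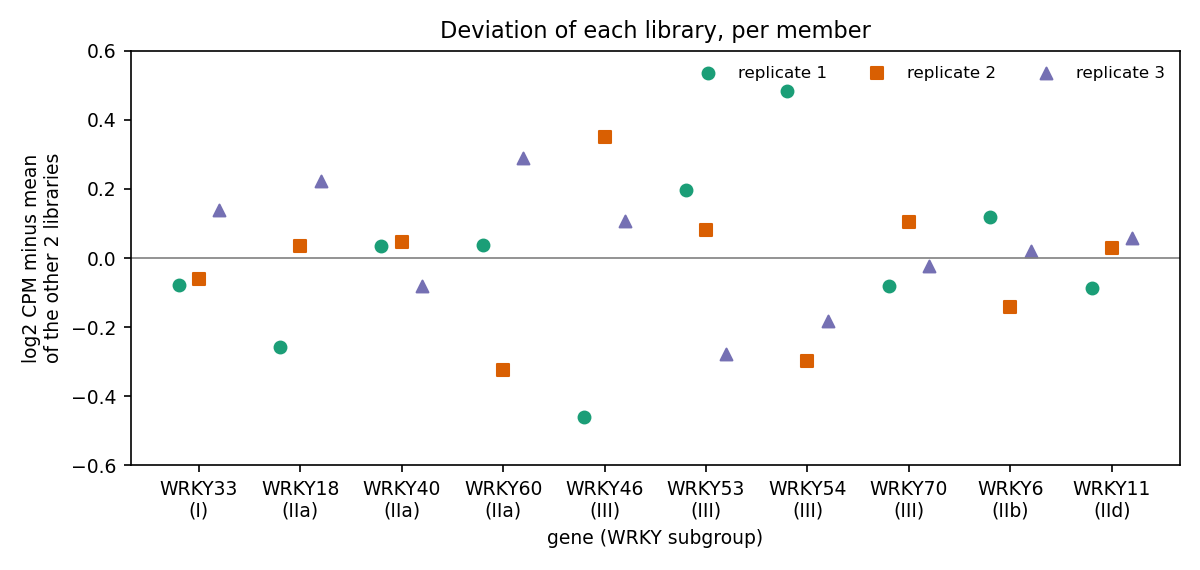
Log2 CPM of each library minus the mean of the other 2 libraries (y axis), per member; points above 0 are higher than the other libraries. WRKY54 (0.48) and WRKY46 (-0.46) lie on opposite sides in replicate 1, and no library is on one side for all 10 genes.

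None of the 10 members varied beyond genes of its own level. In edgeR's goodness-of-fit test with the trended dispersion, the adjusted p was 0.9999 for each of the 10 and the lowest unadjusted p was 0.19 for WRKY54, so 0 members had an unadjusted p under 0.05. Over all 18915 genes tested, 28 were called, which is 0.148%, and 872 had an unadjusted p under 0.05. With the dispersion trend of DESeq2 in the same test, 0 members and 18 genes in all were called, and without replicate 3 the edgeR test called 0 members and 6 genes in all. Small differences between libraries would not be detectable with 3 samples.

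Measured against counting error alone, 3 members varied: WRKY33 (adjusted p = 0.0052), WRKY54 (0.014) and WRKY18 (0.039), by edgeR's goodness-of-fit test with the dispersion at 0. Of all genes tested, 32.8% did so. With 3 libraries, leaving out 1 that differs can undo such a call for any gene. WRKY33 had an adjusted p of 0.90 without replicate 3, and WRKY54 had 0.83 without replicate 1. WRKY18 had 0.49 without replicate 1 and 0.25 without replicate 3. WRKY60 (0.046 without replicate 1) and WRKY46 (0.045 without replicate 3) were called only with those libraries left out. Most low counts in the table are even (84.5% to 86.2% of counts from 1 to 19, depending on library), so counts need not be independent molecules. Of counts of 1000 and over, 49.9% to 51.1% were even. The members' own counts were all 88 or more, and 9, 6 and 5 of the 10 were even in replicates 1, 2 and 3. On halved counts 0 members were called, with an adjusted p of 0.19, 0.26 and 0.36 for WRKY33, WRKY54 and WRKY18, and 1 member, WRKY33, had an unadjusted p under 0.05. Of all genes tested on halved counts, 6.38% were called.

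The spread of the members was widest at low counts. The 4 members under 10 CPM had coefficients of variation of 20.7% (WRKY54), 18.9% (WRKY46), 14.2% (WRKY60) and 11.3% (WRKY53), beside a median of 14.7% over genes of 1 to under 10 CPM. Counting error alone gives 9.30%, 10.2%, 7.15% and 8.92% for them, and 13.1%, 14.4%, 10.1% and 12.6% on halved counts. Among the 5 members of 10 to under 100 CPM, WRKY18 (11.2%) lay above that class's median of 6.07%, WRKY6 (6.07%) at it, and WRKY70 (4.42%), WRKY11 (3.53%) and WRKY40 (3.19%) below it. WRKY33 at 5.66% has a mean at the edge of 2 classes, and its value lay above the median of 3.61% for genes of 100 CPM and over and below the 6.07% of the class beneath.

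**Figure D3:**
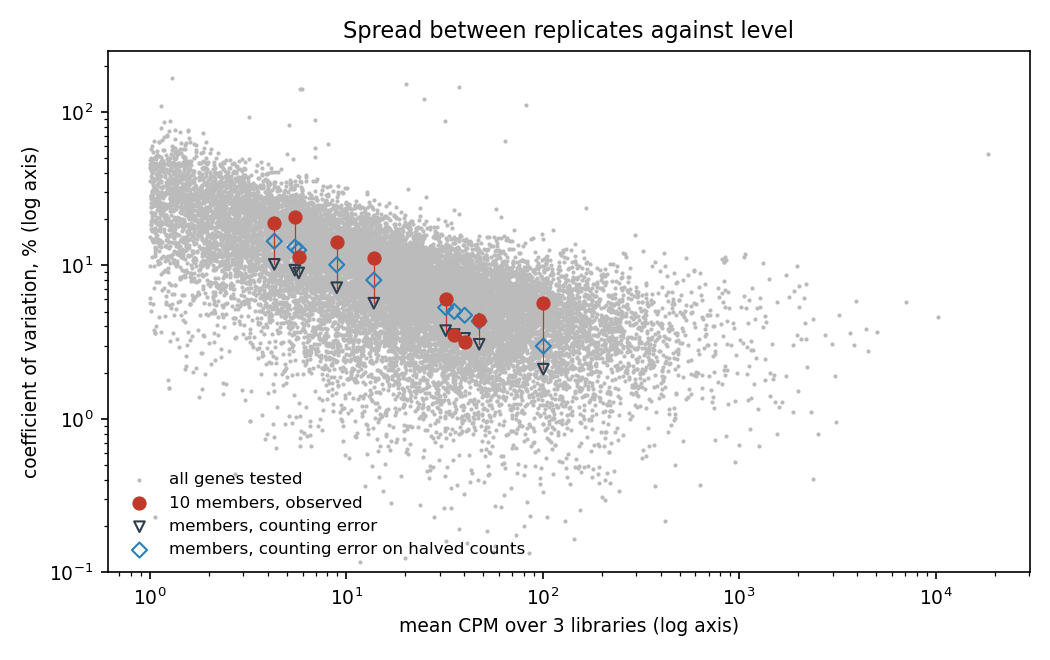
Coefficient of variation over the 3 libraries (y, log axis) against mean CPM (x, log axis) for all genes tested (grey) and the 10 members (red), with the counting error of each member on counts as deposited (triangles) and on halved counts (diamonds). Members lie inside the grey cloud, from 20.7% for WRKY54 to 3.19% for WRKY40.

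All genes of groups IIa, IIb and IIe were expressed, and fewer in groups III and IIc. In group III, which holds 4 members, 5 of 14 genes were expressed, and the other expressed gene was RRS1 (33.4 ± 3.28 CPM), a resistance protein gene with a WRKY domain. WRKY30, WRKY41 and WRKY55, group III genes known as inducible or tied to senescence, were under 1 CPM. WRKY30 stood at 0.615 ± 0.279 CPM, WRKY41 had 2 counts in each library, and WRKY55 had 6, 2 and 0 counts in replicates 1, 2 and 3. WRKY55 is the gene next to WRKY54 in the gene table, and WRKY54 had 5.49 ± 1.135 CPM. In group IIc, which has no member here, 6 of 17 genes were expressed. WRKY45, expressed at 13.2 ± 1.55 CPM, was given no group here and is left out of all group counts.

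Most WRKY genes outside the list had fewer reads than any member. The median of those 62 genes was 2.87 CPM, under the lowest member, WRKY46 at 4.31 ± 0.813 CPM, and 24 of them were under 1 CPM. The 3 highest outside the list were WRKY3 at 60.3 ± 4.48 CPM, WRKY39 at 52.1 ± 0.0971 CPM and WRKY1 (ZAP1) at 52.1 ± 1.65 CPM. The family median was 4.19 CPM over all 72 genes, and 3 genes (WRKY34, WRKY64 and WRKY68) had no count, where the floor of 3 counts stands at 0.162 CPM in replicate 2, the shallowest. The WRKY genes outside the list with levels nearest to WRKY70 were WRKY1 and WRKY15, at a Euclidean distance of 0.23 and 0.24 in log2(CPM + 1) over the 3 libraries. For WRKY33 the nearest were WRKY3 and WRKY39, at 1.27 and 1.63. With 3 libraries of 1 condition this likeness is one of level, not of response.

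Of the 48 expressed WRKY genes, 0 were called beyond genes of their own level, beside 0.148% of all genes tested. In that goodness-of-fit test 1 of them, WRKY28, had an unadjusted p under 0.05 (0.031), beside 872 of all 18915 genes. Beyond counting error 14 of the 48 were called, of which 3 were members, beside 32.8% of all genes tested. On halved counts 0 were called, beside 6.38% of all genes tested.

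**Figure D4:**
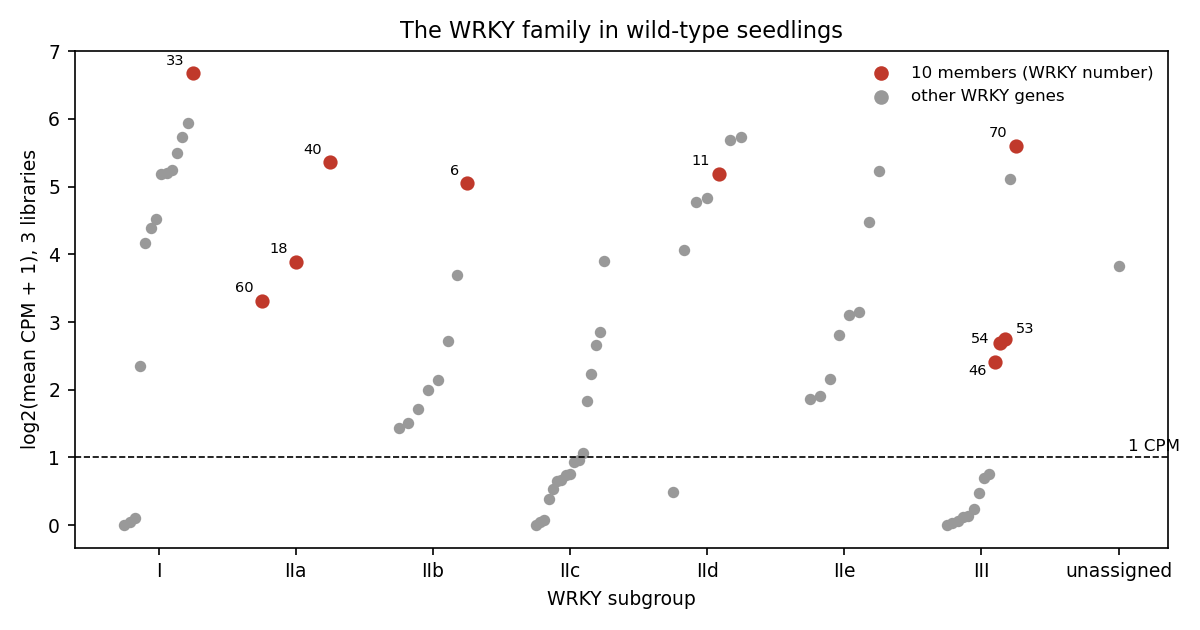
Mean level over 3 libraries as log2(CPM + 1) for the 72 WRKY genes by group, with the 10 members in red and numbered, and the dashed line at 1 CPM. WRKY45, given no group, is shown as unassigned. Group IIa consists of members alone, whereas 9 of 14 group III genes and 11 of 17 group IIc genes lie under the line.

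The kinase module upstream of WRKY33 was expressed throughout, 11 of 11 genes with its partners, with a median of 23.6 CPM beside 22.98 CPM for the members and 19.1 CPM for all genes tested. MPK3 was the highest at 108 ± 3.48 CPM, and MPK6 and MPK4 stood at 56.7 ± 2.78 and 54.4 ± 2.004 CPM. MKS1, a substrate of MPK4 that ties it to WRKY33, was the lowest at 6.19 ± 0.810 CPM. SIB1 and SIB2, activators of WRKY33, stood at 18.0 ± 0.952 and 16.2 ± 2.79 CPM. No gene of the list was called beyond genes of its own level, beside 0.148% of all genes tested. SIB2 had 19.4, 14.2 and 14.9 CPM in replicates 1, 2 and 3 (unadjusted p = 0.045, adjusted p = 0.9999).

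Genes under WRKY33 control in camalexin and ethylene synthesis differed in reads. ACS6, an ethylene synthesis enzyme gene, had 88.2, 84.6 and 85.2 CPM in replicates 1, 2 and 3, and PAD3, which makes camalexin in the last step, had 16.1, 16.8 and 19.6 CPM. PAD3 was highest in replicate 3, as was WRKY33, whereas ACS6 and CYP71A12 were highest in replicate 1 and CYP71A13 and ACS2 in replicate 2. The near-identical neighbours CYP71A12 and CYP71A13, whose split of reads is uncertain, stood at 4.84 ± 0.794 and 2.67 ± 0.632 CPM. ACS2 was the lowest of the 5 at 0.582, 1.87 and 1.56 CPM, from only 18, 35 and 32 counts in replicates 1, 2 and 3. It was also the most variable (unadjusted p = 0.0077, adjusted p = 0.72 by the goodness-of-fit test with the trended dispersion). Counting error alone is 19.6% for ACS2, and 27.6% on halved counts. No gene of the 5 was called beyond genes of its own level, beside 0.148% of all genes tested.

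The 10 salicylic acid pathway genes were all expressed (median 17.4 CPM). NPR1, a salicylic acid receptor and coactivator, was the highest at 33.8 ± 2.41 CPM and PBS3, an enzyme of salicylic acid synthesis, the lowest at 3.74 ± 0.354 CPM. ICS1, the isochorismate synthase gene that WRKY54 and WRKY70 are known to hold down, had 10.5, 7.22 and 8.67 CPM in replicates 1, 2 and 3. ICS1 and WRKY54 were highest in replicate 1 and lowest in replicate 2, and WRKY70 was the reverse, lowest in replicate 1 and highest in replicate 2. By the goodness-of-fit test with the dispersion at 0, adjusted p was 0.0040 for ICS1, 0.014 for WRKY54 and 0.22 for WRKY70. On halved counts it was 0.18, 0.26 and 0.63. A link between these genes was not tested. No gene of the list was called beyond genes of its own level, beside 0.148% of all genes tested.

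Immune output genes had few reads. The list had 6 of 7 genes over the threshold and a median of 5.46 CPM. PR2, a glucanase gene, was the highest at 16.3 ± 0.254 CPM, and PR1, a marker of salicylic acid signalling, stood at 3.19 ± 0.340 CPM. FRK1, the kinase gene used as a marker of pattern-triggered immunity and a target of WRKY6, was the lowest at 0.840, 0.855 and 0.877 CPM. FRK1 was under the threshold and not tested. No tested gene of the list was called beyond genes of its own level, beside 0.148% of all genes tested.

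Of the senescence and phosphate genes linked to WRKY53 and WRKY6, 3 of 4 were expressed. PHO1, which WRKY6 represses, was the highest at 64.9 ± 2.75 CPM. SAG13 stood at 6.57 ± 0.322 CPM, and the late senescence protease gene SAG12 had no count in any library and was not tested. No tested gene of the list was called beyond genes of its own level, beside 0.148% of all genes tested.

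Rapid touch and wound genes, several of which respond on the same time scale as WRKY33 and WRKY40, reached 1 CPM in 8 of 8 cases (median 53.2 CPM). SZF1, a zinc finger protein gene, was the highest at 158 ± 3.32 CPM, ZAT10, a repressor induced by many stresses, stood at 110 ± 6.67 CPM and the calmodulin-like gene CML38 was the lowest at 12.7 ± 1.09 CPM. Their summed level was 555, 542 and 541 CPM in replicates 1, 2 and 3, highest in replicate 1, whereas the members' sum was highest in replicate 3. No gene of the list was called beyond genes of its own level, beside 0.148% of all genes tested. The part of handling at harvest in these levels was not tested.

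Beyond counting error, where 32.8% of all genes tested were called, the calls among the expressed genes of the 6 lists were 1 of 11 in the kinase module, 3 of 5 WRKY33 targets, 2 of 10 salicylic acid genes, 0 of 6 immune output genes, 0 of 3 senescence and phosphate genes and 3 of 8 touch and wound genes. On halved counts 1 list gene, SIB2, was called, beside 6.38% of all genes tested.

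**Figure D5:**
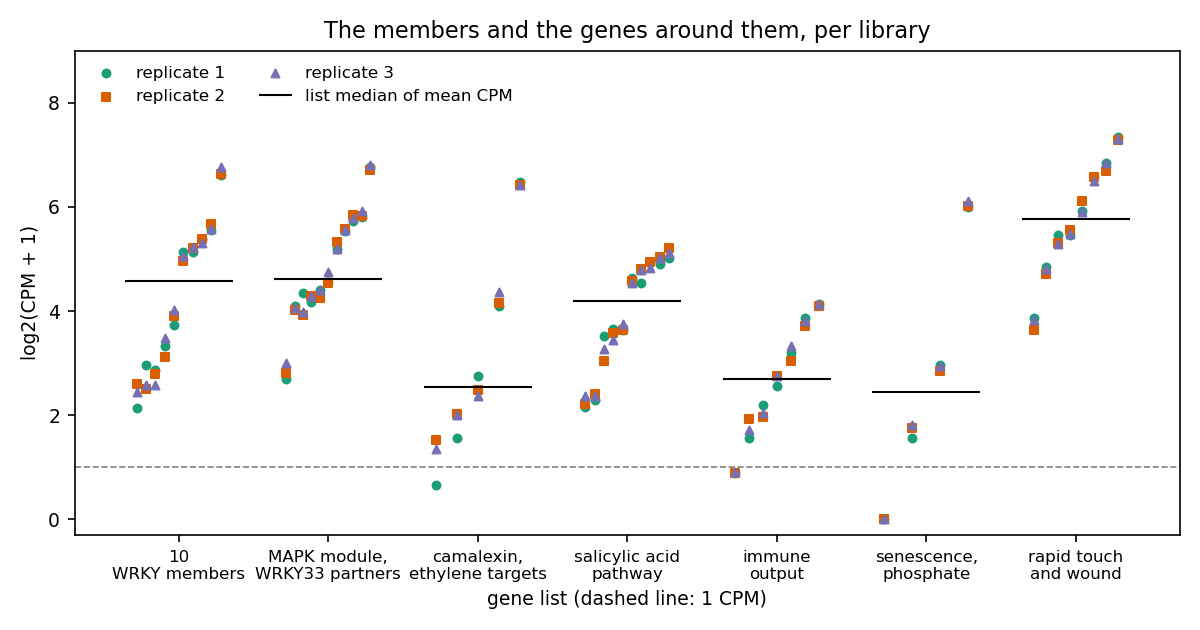
Level per library as log2(CPM + 1) for the members and for 6 lists of pathway genes, each gene in order of its mean, with black bars at the list median and the dashed line at 1 CPM. The list medians run from 53.2 CPM for touch and wound genes to 4.43 CPM for senescence and phosphate genes. The widest gap between libraries is 3.22-fold, for ACS2, which had only 18, 35 and 32 counts in replicates 1, 2 and 3.

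Some members overlap another gene. The gene table places WRKY33, WRKY40 and WRKY53 in overlap with 1 counted gene each, and the other 7 members with none. AT4G23800, the HMG-box gene that overlaps WRKY53, had 42.1, 43.9 and 42.9 CPM in replicates 1, 2 and 3, where WRKY53 had 6.27, 5.93 and 5.02 CPM. AT2G38480, which overlaps WRKY33, stood at 4.90 ± 0.538 CPM, and AT1G80850, which overlaps WRKY40, at 9.70 ± 1.80 CPM. How the counting treated strand is not stated in the sources, and how reads in the shared stretch were assigned was not tested.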

How the data were processed

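The deposited table holds raw counts per gene as the authors made them, 1 column for each of 3 RNA samples, grouped by title. The submitters' processing notes name TAIR10 as the build and list featureCounts, HISAT2, cutadapt, SAMtools 1.13, Bowtie2 2.4.5 and deepTools 3.5.1 without roles. How strand, multi-mapping reads and read pairs were counted is not stated there. CPM were computed from the counts with edgeR 4.0.16 (R 4.3.3, TMM factors 0.989 to 1.01). Replicate spread was tested over all genes averaging 1 CPM or more by edgeR's goodness-of-fit test of an intercept-only model (2 degrees of freedom, dispersion trended or 0), with Benjamini-Hochberg adjustment at 0.05. Only the test with trended dispersion was checked on simulated data. Those data were drawn with that same dispersion and without the excess of even low counts. Log2 differences used a prior count of 2. DESeq2 1.42.0 gave alternative size factors and dispersions. Names came from a RefSeq gene table of TAIR10.1, which holds 32835 of 33602 identifiers and all 10 members. List genes were kept where it gives that name (45 of 46, without NAC092). Members and lists were chosen with earlier results of these data known. Named genes were the members, set relatives, the 3 highest other WRKY genes, the nearest in level, and list extremes. RRS1, WRKY28, WRKY45 and the WRKY genes without a count were named after their values were seen. Levels per length and promoter and protein sequences were planned but are not analysed here. Floors (3 counts of the library total) cover counting error only.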

Additional observations from a re-analysis of the deposited data

How the results depend on the processing

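The number of members varying beyond genes of their own level was 0 under each alternative run (size factors of DESeq2, library totals only, no filter on low counts, halved counts, the dispersion trend of DESeq2, and leaving out each replicate). Over all genes that count was 18 with the dispersion trend of DESeq2 and ran from 6 to 29 when a replicate was left out, against 28; the lowest was without replicate 3. Genes varying beyond counting error numbered 1207 on halved counts, against 6197, and members 0, against 3. Leaving out a replicate gave 2964 to 3862 such genes, with fewer samples in the test, and 2 to 3 members: WRKY33 and WRKY60 without replicate 1, WRKY18, WRKY33 and WRKY54 without replicate 2, and WRKY46 and WRKY54 without replicate 3. The median deviation of the members in replicate 2 ran from -0.054 without replicate 1 to 0.057 with library totals only, against 0.03. Without replicate 3 it was 0.0090, so its sign is not settled. Of 50 recomputed member levels, 0 moved by over 1 SD, and the largest move was 11.8%. At fixed scaling, leaving out 1 of 3 libraries cannot move a mean by over 1 SD. For the runs without a replicate, the 0 therefore says nothing about stability. Depth limits the 4 members under 10 CPM most, where counting error alone is 7.15% to 10.2%. No paired analysis was possible because there is a single RNA group.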
